A study of Mus musculus with 6 samples.

Results

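RNA sequencing compared Neuro-2a cells in which the long noncoding RNA lncPim1 had been knocked down with control cells, in 2 libraries each, 4 of the 6 libraries of the series. Neuro-2a is a mouse neuroblastoma line that divides rapidly in culture and can be induced to grow neurites. The control cells are labelled wild type and the knockdown cells as RNA interference of lncPim1. The labels name no scrambled RNA, mock transfection or empty vector for the control group, so the knockdown and the delivery of the interfering RNA cannot be told apart. The other 2 libraries, from cells overexpressing lncPim1, entered the model only to help estimate the spread and as a reference that does not share the control libraries. The series title refers to neuron-like differentiation and neurite regeneration after injury, and the labels of these samples name no injuring agent. Whether the 2 libraries of a group were separate cultures is not stated either, and the p-values then cover only the variation between these libraries, which may be technical.

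Expression was given as FPKM, fragments scaled to transcript length and library size, and was tested as log2(FPKM + 1) with limma over the 10721 genes that averaged 1 FPKM or more. A gene was called when its Benjamini-Hochberg adjusted p was under 0.05, and fold changes are log2, knockdown minus control, ± SE. lncPim1 had 0 rows in the table, so the knockdown could not be checked on its target. Of the tested genes 10604 were matched as protein-coding. In 16 markers of neuroblastoma and sympathetic neurons, 13 stood at 1 FPKM or more in both groups, and Dbh and Chrnb4 were among those that did not.

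The gene groups that moved most belong to programmes with well known roles. Immediate early genes encode transcription factors and feedback regulators that are switched on within minutes of growth factor or stress signals through the ERK, p38 and JNK kinase cascades, and NF-kB drives chemokine genes in response to inflammatory signals. Cells that leave the cell cycle lower the genes of spindle and kinetochore assembly, which peak at the G2 and M phases. Neuroblastoma cells keep parts of the sympathetic neuron programme, with lineage transcription factors, catecholamine synthesis, neuronal cytoskeleton and ligand-gated channels.

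Under knockdown chemokine, immediate early and ERK feedback genes were higher, and mitotic, proteasome, translation, splicing and many neuronal genes were lower. The chemokine gene Cxcl1 went from a mean of 4.298 ± 1.66 to 36.3 ± 1.07 FPKM (SD, n = 2), and the serotonin-gated channel gene Htr3a from 20.3 ± 0.661 to 7.56 ± 0.559 FPKM (SD, n = 2). In all, 4948 of the 10721 genes were called (46.2%), 1590 of them higher (14.8%) and 3358 lower (31.3%). The median fold change over all tested genes was -0.07, and most calls were small. Of the called genes 394 were higher and 459 lower by at least 0.5, and 58 were higher and 30 lower by at least 1.

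The balance of rises and falls depended on scaling. The FPKM values summed to 298032 and 305463 for control and to 277508 and 272528 for knockdown. After each library was divided by its median log ratio to the mean of all libraries, 2245 genes were called higher (20.9%) and 2286 lower (21.3%), 42.3% in all. The median then stood at 0.0047. Higher genes made up 32.1% of the calls without scaling and 49.5% with it. All 1590 higher genes were also called higher after scaling, 1072 of the lower genes were called only without it, and 0 genes were called in opposite directions. Counts after scaling are therefore given in parentheses beside those without it. Between libraries of a group Spearman correlations over tested genes were 0.997 (control) and 0.995 (knockdown), and 0.976 to 0.982 between the groups.

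**Figure D1:**
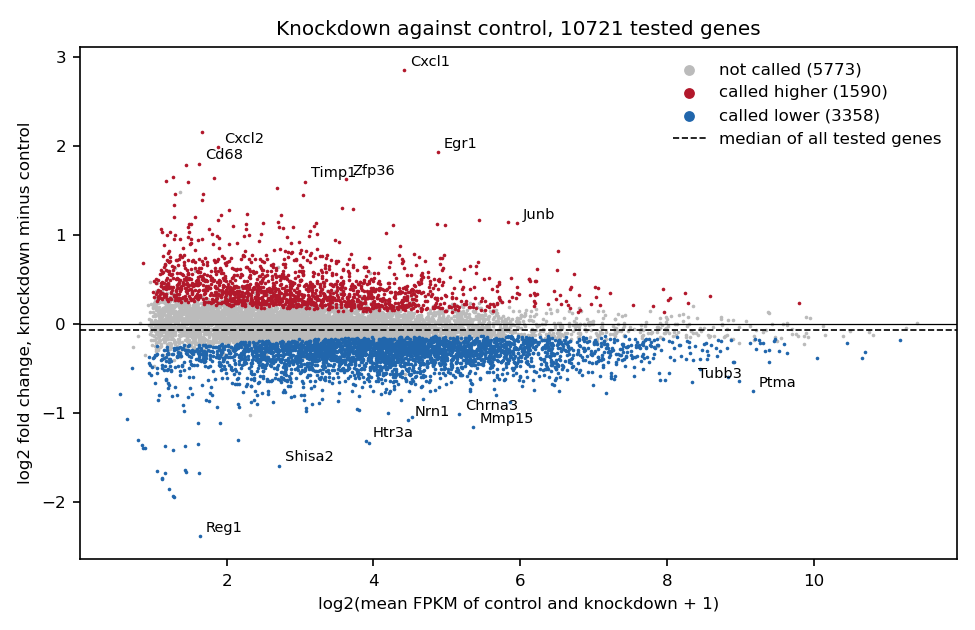
Log2 fold change of knockdown minus control against log2 of the mean FPKM + 1, 1 point per tested gene, coloured by call, with the median of all tested genes dashed. The largest rises lie among genes of low and middle level, while abundant genes lie mostly below 0.

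The direction of change went with expression level. Among 3222 genes with a mean of 1 to 5 FPKM, 20.9% were higher and 14.5% lower. The lower calls rose to 30.1% at 5 to 20 FPKM, 51.8% at 20 to 100 FPKM and 53.4% of the 466 genes at 100 FPKM or more, where 4.08% were higher. After scaling the figures for the most abundant genes were 8.80% higher and 38.8% lower, and for the least abundant 26.6% and 9.44%. Transcript GC content moved with the direction too. With genes in 5 equal bins of GC, 21.7% were higher and 24.6% lower in the richest bin, against 10.7% and 34.3% in the poorest. The part of level in the gene group counts below was not tested, and the shares over all tested genes beside them are not matched for level. Shares lower such as 55.3% in ribosome biogenesis, 53.8% in DNA replication and 53.1% in chaperones are near that of genes at 20 to 100 FPKM. When the GC trend of each library was removed, an alternative chosen after seeing the data, the spindle list had 40 of 74 genes lower and 1 higher, the proteasome list 26 of 43 lower, immediate early factors 17 of 25 higher and ERK feedback genes 14 of 20 higher. Removing the trend also takes out the shift of a library as a whole, so these counts compare with those after scaling.

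lncPim1 carries the name of Pim1, a serine/threonine kinase gene induced by cytokines. Pim1 lies at chr17:29490753-29496112 on GRCm38, plus strand, and stood at 16.2 and 18.8 FPKM in control against 24.4 and 23.1 under knockdown. It rose by 0.42 ± 0.07 (limma, adjusted p = 0.00179). Pim2 stood at 12.1 and 10.2 FPKM in control against 13.8 and 12.1 under knockdown, and Pim3 at 32.5 and 30.2 FPKM in control against 35.4 and 30.5 under knockdown. Neither was called, though Pim2 was called higher after scaling. Of 17 other genes in the table that start within 500 kb of the Pim1 start, 14 were tested. Srsf3, which encodes a splicing factor of the SR family, went from 118 and 120.2 FPKM to 72.2 and 83.2 and fell by 0.61 ± 0.07 (limma, adjusted p = 2.57e-04). Ppil1, a cyclophilin of the spliceosome, went from 25.2 and 25.4 FPKM to 18.6 and 18.04. Cdkn1a, which encodes the cell cycle inhibitor p21, went from 47.4 and 55.4 FPKM to 63.6 and 59.6. Its groups did not overlap, which held for 7980 of the 10721 tested genes. The rise of Cdkn1a was 0.26 ± 0.07 (limma, adjusted p = 0.0208), and its call was lost without control 1, without knockdown 1 and without the filter on low values. These 3 genes start at lower coordinates than Pim1. Of the 4 tested genes that start at higher coordinates, 2 were lower (1 after scaling) and 0 higher. In a list of 13 tested neighbours of Pim1, 38.5% were lower and 15.4% higher without scaling. These shares are near the 31.3% and 14.8% over all tested genes. Of 537 tested genes on chromosome 17, 23.1% were lower and 19.4% higher. Reads that Pim1 shares with genes on the other strand cannot be separated, because no label or note states whether counting used strand.

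Immediate early transcription factors were mostly higher. The list had 17 of 25 higher (18 after scaling) and 1 of 25 lower (0 after scaling), with a median of 0.41 against -0.07 over all tested genes. Egr1, a zinc finger factor induced by ERK signalling, stood at 10.5 and 11.9 FPKM in control against 47.4 and 43.7 under knockdown and rose by 1.94 ± 0.08 (limma, adjusted p = 2.42e-05). Its relative Egr3 stood at 1.04 and 1.51 FPKM in control against 3.67 and 4.99 under knockdown. Junb, an AP-1 subunit, went from 36.99 and 38.2 FPKM to 81.9 and 85.8 and rose by 1.14 ± 0.05. In each of these genes the gap between the groups was larger than that between libraries of a group. Ier3, an early gene that modulates cell survival, went from 24.1 and 27.2 FPKM to 58.7 and 59.1, and Atf3, a stress-induced factor of the ATF/CREB family, from 15.4 and 19.2 FPKM to 28.4 and 30.9. Btg2, which restrains proliferation, rose by 0.68 ± 0.08. Not all AP-1 genes moved this way: Jund went from 60.1 and 60.5 FPKM to 51.1 and 53.4 and fell by 0.20 ± 0.05, and that call was not made after scaling.

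The negative regulators that ERK signalling induces rose alongside. The list of MAP kinase phosphatases and ERK feedback genes had 13 of 20 higher (14 after scaling) and 1 of 20 lower (0 after scaling), with a median of 0.44. Dusp6, the phosphatase that acts on ERK in the cytoplasm, stood at 57.7 and 72.1 FPKM in control against 118 and 112 under knockdown and rose by 0.82 ± 0.09 (limma, adjusted p = 2.78e-04). Dusp4, a nuclear phosphatase, went from 78.2 and 92.2 FPKM to 132 and 119.9, and Dusp2 from 3.401 and 4.14 FPKM to 8.08 and 8.75. Spry1, a Sprouty inhibitor of receptor tyrosine kinase signalling, went from 3.95 and 4.99 FPKM to 9.38 and 9.25. Phlda1, an early gene downstream of ERK, rose by 1.15 ± 0.08. In each of these genes both knockdown libraries lay above both control libraries. Groups without overlap, in either direction, were found in 7980 of the 10721 tested genes. Etv5, an ETS factor often induced by the same pathway, went from 26.8 and 29.96 FPKM to 24.8 and 24.2 instead, and its fall was not called after scaling or without control 2, knockdown 1 or knockdown 2. Spred2, an inhibitor of the same cascade, was not called, at 3.24 and 3.16 FPKM in control against 2.57 and 2.78 under knockdown.

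Chemokine and cytokine genes were mostly higher, and on the log2(FPKM + 1) scale, which understates changes of low genes, they held the largest rise of all. The list had 10 of 15 higher (11 after scaling) and 1 of 15 lower (1 after scaling), with a median of 0.50. Cxcl1, a neutrophil-attracting chemokine, stood at 3.13 and 5.47 FPKM in control against 35.5 and 37.01 under knockdown and rose by 2.85 ± 0.22 (limma, adjusted p = 1.05e-04). Its neighbour Cxcl2 stood at 0.368 and 0.592 FPKM in control against 4.35 and 5.38 under knockdown and rose by 1.99 ± 0.16. With 1.46 and 0.770 FPKM under overexpression, Cxcl2 passed the filter largely through the knockdown libraries. The control libraries of Cxcl1 differed between themselves, yet both lay far below the knockdown libraries. Il6, the interleukin 6 gene, went from 5.39 and 6.35 FPKM to 14.97 and 16.9 and rose by 1.30 ± 0.09. Gdf15, a stress-induced cytokine of the TGF-beta family, went from 17.1 and 20.5 FPKM to 46.8 and 37.4, and Vegfa, the vascular growth factor gene, from 27.00 and 30.2 FPKM to 44.3 and 44.3. Ccl25 was the exception, with a fall of 0.31 ± 0.07, a call that was lost without control 2.

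Cxcl1 and Cxcl2 lie close together on chromosome 5, and their promoters are shown because these genes rose together and both hold matches to a pattern of NF-kB sites. The letters searched were GGG and TTTCC with any 2 bases between them, on both strands, chosen after these promoters had been read. The sequences run from 250 bases before to 50 after the start in RefSeq on GRCm38.p6, plus strand, at chr5:90890995-90891294 and chr5:90903649-90903948, with matches in capitals.
Cxcl1: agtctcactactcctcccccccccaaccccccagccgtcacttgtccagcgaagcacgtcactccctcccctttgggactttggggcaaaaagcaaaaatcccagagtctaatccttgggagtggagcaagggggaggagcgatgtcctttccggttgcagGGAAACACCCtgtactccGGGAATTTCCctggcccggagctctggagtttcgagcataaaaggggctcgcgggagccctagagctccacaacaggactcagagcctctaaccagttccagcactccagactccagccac
Cxcl2: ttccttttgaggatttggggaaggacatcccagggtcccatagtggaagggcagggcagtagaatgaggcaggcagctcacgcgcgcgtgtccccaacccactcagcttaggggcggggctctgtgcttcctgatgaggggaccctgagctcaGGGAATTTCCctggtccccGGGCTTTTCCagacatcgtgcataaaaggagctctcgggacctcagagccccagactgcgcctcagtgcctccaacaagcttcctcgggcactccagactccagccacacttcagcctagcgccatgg
Each promoter held 2 matches, the first starting at -89 in Cxcl1 and at -97 in Cxcl2 relative to the start. Over the first listed promoter of 27025 gene symbols, 1.62% held the pattern, and 1.63% did so among the 8348 tested genes with an entry. It was held by 4 of 12 promoters in the chemokine list, 3.47% of the 288 promoters of genes that were called higher with and without scaling and rose by at least 0.5 without it, and 0.852% of the 352 promoters of genes called lower in both that fell by as much without scaling. Of AP-1 letters, TGANTCA, the shares were 9.72% among the higher, 4.83% among the lower and 4.53% among all tested genes with an entry. Over all 27025 promoters the AP-1 share was 7.93%. These letters were held by 0 of 19 promoters of immediate early factors and 3 of 12 in the chemokine list. A match is a description of the letters and not a site of binding.

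NF-kB genes moved in both directions. The list had 9 of 24 higher (11 after scaling) and 4 of 24 lower (2 after scaling). Rela went from 13.8 and 13.8 FPKM to 9.701 and 10.8 and Nfkb1 from 8.41 and 7.73 FPKM to 5.57 and 6.39. These are the subunits of the classical dimer, and they fell by 0.40 ± 0.06 and 0.38 ± 0.08. Nfkbia, an inhibitor gene that the factor itself induces, went the other way, from 45.5 and 48.6 FPKM to 69.5 and 66.2. Nfkbiz, which encodes a nuclear member of the same family, went from 10.9 and 11.4 FPKM to 24.3 and 26.3. Rel, the third activating subunit, rose by 0.74 ± 0.09. Tnfaip2, a target induced by tumour necrosis factor, rose by 0.83 ± 0.14.

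Interferon-induced genes were often higher, though at low levels. The list had 12 of 22 higher (15 after scaling) and 2 of 22 lower (0 after scaling). Isg15, an interferon-induced modifier, went from 8.497 and 8.47 FPKM to 17.1 and 13.8 and rose by 0.79 ± 0.09. Under overexpression Isg15 stood at 16.1 and 16.8 FPKM, and knockdown did not differ from it (limma, adjusted p = 0.429). Against overexpression, without scaling, 9 of 22 genes of the list were higher under knockdown and 0 lower. Over all tested genes 12.4% were higher and 28.1% lower in that contrast. Oasl2, a member of the oligoadenylate synthetase family, went from 1.95 and 2.14 FPKM to 5.36 and 4.18. Dhx58, a cytosolic RNA sensor, went from 0.780 and 0.481 FPKM to 2.62 and 1.93, and Irf9, the DNA-binding subunit of the interferon-induced complex, from 1.599 and 1.21 FPKM to 2.99 and 2.83. In the class I antigen presentation list, with 5 of 17 higher (8 after scaling, 8 after quantile normalization, 2 without control 1, 3 without knockdown 1) and 3 of 17 lower (3 after scaling), H2-M3 rose by 0.59 ± 0.08 while the chaperone gene Pdia3 fell by 0.33 ± 0.05.

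Cytokine signalling genes moved in both directions. JAK-STAT and SOCS genes had 7 of 21 higher (9 after scaling, 3 without control 1) and 2 of 21 lower (1 after scaling). Stat3, the factor that interleukin 6 activates, went from 22.9 and 23.9 FPKM to 32.1 and 31.9, and Socs3, its feedback inhibitor, from 2.18 and 1.91 FPKM to 2.88 and 3.31. Jak2 rose by 0.43 ± 0.09. Jak1, a kinase that the same receptors use, went from 22.9 and 23.2 FPKM to 14.2 and 14.8 and fell by 0.64 ± 0.05 (limma, adjusted p = 1.30e-04).

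RNA-binding proteins that act on unstable cytokine mRNAs diverged. Zfp36, which encodes tristetraprolin and promotes decay of such mRNAs, stood at 4.05 and 6.12 FPKM in control against 17.5 and 17.6 under knockdown and rose by 1.63 ± 0.14 (limma, adjusted p = 1.49e-04). Zc3h12a, an endonuclease of inflammatory mRNAs, rose from low levels by 0.85 ± 0.12. The neuronal Hu proteins Elavl2 and Elavl4, which stabilise transcripts with the same AU-rich elements, went from 21.6 and 21.8 FPKM to 13.7 and 13.4 and from 22.3 and 22.3 FPKM to 14.6 and 16.2. The list as a whole had 5 of 26 higher (8 after scaling, 3 without control 1, 3 without control 2) and 9 of 26 lower (7 after scaling), which is near the share over all tested genes.

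Most mitotic genes were lower. The spindle, kinetochore and cytokinesis list had 59 of 74 lower (44 after scaling) and 0 higher, with a median of -0.29 and of -0.21 after scaling. Ccnb1, which encodes cyclin B1, went from 186 and 186 FPKM to 123 and 125 and fell by 0.58 ± 0.04 (limma, adjusted p = 9.70e-05). Plk1, the kinase of mitotic entry, went from 37.3 and 38.7 FPKM to 24.3 and 22.5 and fell by 0.67 ± 0.06. Kif20a, a kinesin of cytokinesis, fell by 0.73 ± 0.05 and Cks2, a subunit of cyclin-dependent kinases, by 0.69 ± 0.06. In each the 2 knockdown libraries lay close together and well below the controls. Cdc25c and Ncapg had the largest fold changes above 0 in the list and were not called, at 3.35 and 3.79 FPKM in control against 4.46 and 3.52 under knockdown for Cdc25c and 18.5 and 20.2 FPKM in control against 22.4 and 19.1 under knockdown for Ncapg. FPKM from whole cultures does not separate fewer dividing cells from less mitotic mRNA per cell.

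**Figure D2:**
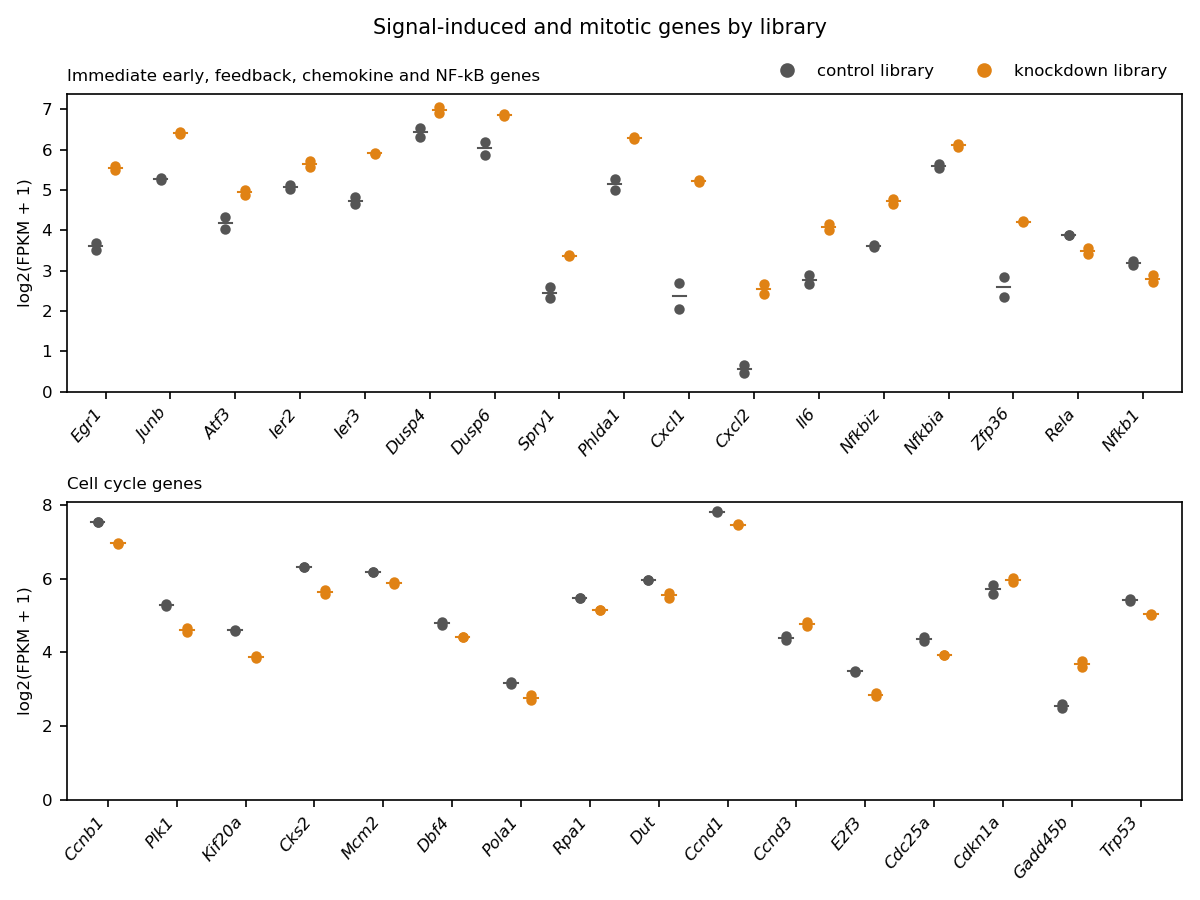
Log2(FPKM + 1) in each library, control in grey and knockdown in orange, with group means as bars, for signal-induced genes (top) and cell cycle genes (bottom). Libraries of a group lie close together, signal-induced genes other than Rela and Nfkb1 are higher under knockdown, and cell cycle genes other than Ccnd3, Cdkn1a and Gadd45b are lower.

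Promoters of mitotic genes often carry a short element, TTTGAA, known as the CHR, near the start site, and CCAAT boxes upstream of it, through which a repressor complex acts in cells that leave the cycle. Plk1 and Cdc20 are shown with TTTGAA in capitals because their matches lie close to the start. Cdc20, the activator of the anaphase-promoting complex, was chosen after its values were seen and went from 36.3 and 36.5 FPKM to 23.5 and 24.99. The coordinates on GRCm38.p6 are chr7:122159185-122159484, plus strand, and chr4:118437294-118437593, minus strand.
Plk1: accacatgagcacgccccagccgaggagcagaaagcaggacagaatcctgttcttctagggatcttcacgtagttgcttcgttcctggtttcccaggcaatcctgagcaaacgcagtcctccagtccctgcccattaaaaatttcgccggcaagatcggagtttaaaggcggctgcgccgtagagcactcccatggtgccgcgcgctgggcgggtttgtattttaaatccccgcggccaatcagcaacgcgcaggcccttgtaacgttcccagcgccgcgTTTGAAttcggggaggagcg
Cdc20: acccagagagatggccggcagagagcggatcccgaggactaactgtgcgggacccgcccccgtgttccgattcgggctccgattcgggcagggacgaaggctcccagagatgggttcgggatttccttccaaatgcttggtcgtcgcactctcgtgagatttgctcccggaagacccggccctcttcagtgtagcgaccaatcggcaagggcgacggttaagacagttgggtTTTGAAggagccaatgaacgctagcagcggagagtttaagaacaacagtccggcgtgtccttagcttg
The match starts at 30 in Plk1 and at -18 in Cdc20 relative to the listed start. Of 60 spindle list promoters with an entry, 42 held TTTGAA (70.0%) and 42 held CCAAT (70.0%), counted on both strands. Over all 27025 promoters the shares were 18.1% and 37.9%, and over tested genes with an entry 11.1% and 39.2%. Among the genes lower by at least 0.5 on the same rule the TTTGAA share was 13.6%, against 9.03% of those higher by as much. The CCAAT shares were 34.7% of the lower and 36.5% of the higher. The letters TGACGTCA and CACGTG were searched as well. They were held by 2.56% and 8.24% of the lower, 3.47% and 9.38% of the higher, and 3.67% and 10.6% of tested genes with an entry.

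Replication genes fell less uniformly. The DNA replication list had 35 of 65 lower (22 after scaling, 12 after quantile normalization, 22 without control 1, 22 without control 2) and 1 of 65 higher (2 after scaling). Mcm2, a subunit of the replicative helicase, went from 72.1 and 71.7 FPKM to 58.6 and 56.8, and Dbf4, the activator of the kinase that fires origins, from 25.9 and 27.5 FPKM to 20.4 and 20.3. Pola1, the catalytic subunit of the primase polymerase, fell by 0.40 ± 0.07, and Dut, which clears dUTP, by 0.41 ± 0.06. Orc4, a subunit of the origin recognition complex, was the only higher member, from 8.54 and 9.197 FPKM to 10.6 and 11.3, and its call was lost without control 1.

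Regulators of the G1 phase did not share a direction. That list had 6 of 21 lower (4 after scaling) and 3 of 21 higher (5 after scaling). Its shares are near those over all tested genes, 31.3% lower and 14.8% higher. E2f3, a factor that activates S phase genes, went from 10.1 and 10.3 FPKM to 6.002 and 6.43 and fell by 0.64 ± 0.07. Ccnd1, which encodes cyclin D1, went from 226 and 225 FPKM to 179 and 173, while Ccnd3 for cyclin D3 went from 19.2 and 20.8 FPKM to 27.1 and 25.2. Cdc25a, the phosphatase that releases Cdk2, fell by 0.43 ± 0.06. Of p53 targets there were 11 of 29 higher (13 after scaling, 7 without control 1) and 9 of 29 lower (3 after scaling, 4 after quantile normalization, 3 without control 1, 5 without knockdown 1). Trp53 itself went from 42.9 and 41.4 FPKM to 31.2 and 32.1, while Gadd45b, a stress-induced growth arrest gene, went from 5.03 and 4.65 FPKM to 12.5 and 11.2 and rose by 1.14 ± 0.08. Bbc3, the proapoptotic gene for PUMA, rose by 0.46 ± 0.09. Among BCL2 family and caspase genes, with 5 of 23 higher (8 after scaling, 2 without control 1, 3 without knockdown 2) and 5 of 23 lower (4 after scaling), Xiap, an inhibitor of caspases, fell by 0.39 ± 0.07, and Diablo, which antagonises it, by 0.47 ± 0.06.

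Neuronal cytoskeleton and neurite genes were lower more often than higher. Of growth cone and neurite growth genes there were 28 of 50 lower (23 after scaling) and 4 of 50 higher (6 after scaling). Tubb3, the neuronal beta-tubulin, stood at 397 and 388 FPKM in control against 246 and 253 under knockdown and fell by 0.65 ± 0.05 (limma, adjusted p = 1.19e-04). Nrn1, which encodes neuritin, a promoter of neurite growth, stood at 30.7 and 27.5 FPKM in control against 12.3 and 14.4 under knockdown and fell by 1.07 ± 0.08. Nefh, the heavy neurofilament subunit, went from 24.2 and 22.8 FPKM to 10.9 and 11.7 and fell by 0.99 ± 0.06. The groups of all 3 genes were far apart. Fscn1, the actin bundler fascin, went from 241 and 234 FPKM to 165 and 169, and Pfn1, profilin, from 410.3 and 408 FPKM to 287 and 289.9. Among the higher members were Atf3, given above, and Rnd1, a small GTPase, which went from 10.1 and 11.6 FPKM to 20.7 and 25.8.

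Tubulin isotypes diverged. The tubulin list had 7 of 15 lower (6 after scaling, 4 without knockdown 2) and 4 of 15 higher (4 after scaling). Tubb2a went from 105 and 101 FPKM to 75.8 and 71.1 and Tubb2b from 84.98 and 84.7 FPKM to 61.2 and 56.3, both abundant in developing neurons. Tubb6 went the other way, from 86.4 and 90.5 FPKM to 108 and 104, as did Tubg2, a gamma-tubulin, from 4.58 and 3.603 FPKM to 6.12 and 6.29. Of microtubule-associated proteins, doublecortins and collapsin response mediators there were 20 of 41 lower (15 after scaling, 13 after quantile normalization) and 3 of 41 higher (6 after scaling). Map1b, a microtubule-binding protein of growing axons, went from 179 and 175 FPKM to 114 and 128, and Stmn1, which destabilises microtubules, from 539.8 and 552 FPKM to 416 and 394. Crmp1 and Dpysl3, mediators of collapsin responses, fell by 0.37 ± 0.05 and 0.38 ± 0.05. Lmnb1, the nuclear lamin B1, went from 36.9 and 32.6 FPKM to 20.7 and 20.03 and fell by 0.74 ± 0.07.

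The sympathetic lineage factors Phox2a and Hand2 fell, while Th and Slc18a2, of catecholamine synthesis and storage, rose. Phox2a, a homeobox factor that specifies noradrenergic neurons, went from 237 and 210.2 FPKM to 147 and 151 and fell by 0.58 ± 0.08. Hand2, a basic helix-loop-helix factor of the same lineage, went from 108 and 106 FPKM to 68.3 and 72.5 and fell by 0.60 ± 0.06 (limma, adjusted p = 2.23e-04). Th, which encodes tyrosine hydroxylase, the rate-limiting enzyme of catecholamine synthesis, stood at 4.99 and 4.67 FPKM in control against 11.9 and 9.32 under knockdown and rose by 0.99 ± 0.12 (limma, adjusted p = 4.97e-04). Slc18a2, the vesicular monoamine transporter, went from 20.4 and 18.2 FPKM to 31.7 and 26.1 and rose by 0.56 ± 0.09. The list had 11 of 23 lower (8 after scaling) and 4 of 23 higher (6 after scaling). Granule genes also divided. Npy, the neuropeptide Y gene, rose by 0.71 ± 0.08 and Ptprn, a granule membrane protein, by 0.53 ± 0.06, while Chga, chromogranin A, fell by 0.38 ± 0.05. Bex1 and Bex4 fell by 0.58 ± 0.07 and 0.81 ± 0.08. The granule list had 6 of 21 higher (9 after scaling, 3 without control 1) and 4 of 21 lower (4 after scaling).

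Ligand-gated channel genes were among the largest falls. Of 5 tested nicotinic and serotonin-gated subunits, 4 were lower and 0 higher, with a median of -0.79. Htr3a stood at 19.8 and 20.7 FPKM in control against 7.17 and 7.96 under knockdown and fell by 1.31 ± 0.08 (limma, adjusted p = 5.37e-05). Chrna3, the nicotinic subunit of autonomic ganglia, stood at 48.8 and 45.2 FPKM in control against 22.8 and 22.8 under knockdown and fell by 1.01 ± 0.06. Chrna7 went from 2.83 and 2.49 FPKM to 0.843 and 1.43. Voltage-gated channel genes had 8 of 33 higher (8 after scaling, 5 without control 1, 5 without control 2) and 6 of 33 lower (4 after scaling, 3 without knockdown 1). Kcnab1, a potassium channel beta subunit, went from 21.2 and 20.5 FPKM to 8.79 and 6.68 and fell by 1.33 ± 0.11, while its relative Kcnab3 rose by 0.66 ± 0.12. The sodium channel genes Scn9a and Scn2a1 also parted, with a fall of 0.49 ± 0.07 and a rise of 0.61 ± 0.08. Cacna1i, a T-type calcium channel, went from 3.11 and 2.97 FPKM to 5.09 and 4.77.

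**Figure D3:**
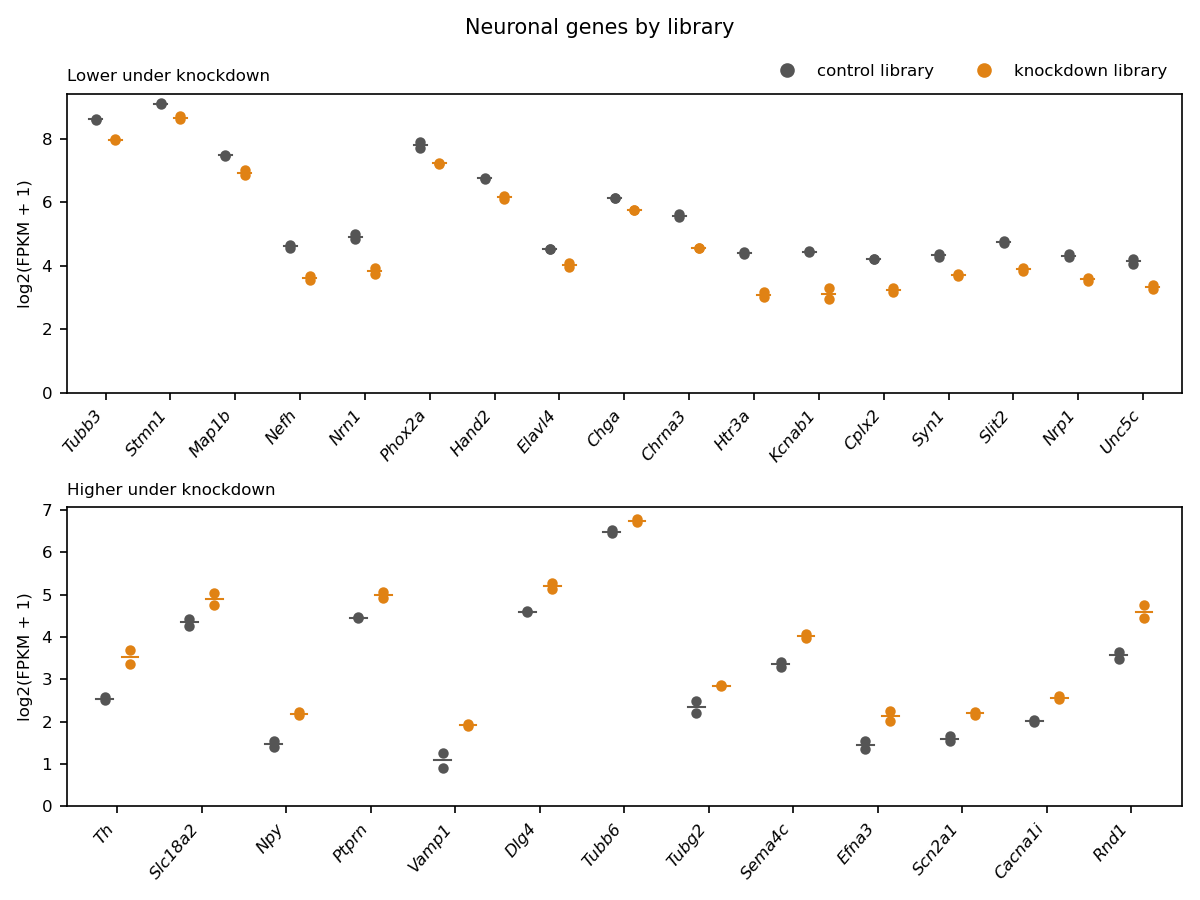
Log2(FPKM + 1) in each library, control in grey and knockdown in orange, with group means as bars, for neuronal genes that were lower (top) and higher (bottom) under knockdown. The genes were picked by their direction, and in each the libraries of the groups do not overlap, as in 7980 of the 10721 tested genes.

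Synaptic genes had 19 of 41 lower (18 after scaling) and 7 of 41 higher (11 after scaling, 3 without control 1, 4 without control 2, 4 without knockdown 1). Cplx2, complexin 2, which clamps vesicle fusion, went from 17.4 and 17.4 FPKM to 8.13 and 8.797 and fell by 0.96 ± 0.07. Syn1, synapsin 1, went from 19.8 and 18.4 FPKM to 11.9 and 12.4, and Sv2c, a vesicle glycoprotein, from 65.1 and 65.5 FPKM to 42.3 and 41.6. Dlg4, the postsynaptic scaffold PSD-95, went from 23.02 and 23.3 FPKM to 37.6 and 34.2 instead and rose by 0.61 ± 0.06, and Vamp1, a vesicle SNARE, by 0.84 ± 0.14.

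Axon guidance genes moved strongly in both directions, with 13 of 30 higher (13 after scaling, 8 without control 1, 8 without knockdown 1) and 11 of 30 lower (9 after scaling). Slit2, a secreted repellent, stood at 26.3 and 25.2 FPKM in control against 13.3 and 14.4 under knockdown and fell by 0.85 ± 0.06 (limma, adjusted p = 7.25e-05). Unc5c, a netrin receptor, went from 17.8 and 15.8 FPKM to 8.76 and 9.57, and Nrp1, the semaphorin receptor neuropilin 1, from 19.7 and 18.2 FPKM to 10.4 and 11.4. Efna5, an ephrin ligand, fell by 0.77 ± 0.06, while Efna3, another, rose by 0.70 ± 0.14. Sema4c, a membrane semaphorin, went from 8.78 and 9.69 FPKM to 15.8 and 14.7. Notch pathway genes had 3 of 17 higher (6 after scaling) and 1 of 17 lower (1 after scaling), and 13 were not called. The share higher, 17.6%, is near the 14.8% over all tested genes. Notch2 rose by 0.38 ± 0.08, Rbpj, its nuclear effector, by 0.38 ± 0.08, and Numbl, an antagonist, fell by 0.35 ± 0.06.

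Ribosome biogenesis and translation factor genes were lower in 55.3% and 65.3% of members, against 31.3% over all tested genes. That background is not matched for level, and 51.8% of all tested genes at 20 to 100 FPKM were lower. Ribosome biogenesis had 47 of 85 lower (31 after scaling, 25 after quantile normalization) and 2 of 85 higher (3 after scaling). Ncl, nucleolin, went from 107 and 108 FPKM to 69.7 and 77.5, Nop16, a nucleolar protein, from 42.2 and 39.1 FPKM to 25.8 and 27.3, and Dkc1, the pseudouridine synthase dyskerin, from 18.5 and 19.1 FPKM to 11.2 and 13.6. Translation factors had 32 of 49 lower (25 after scaling, 13 after quantile normalization) and 1 higher, which was Eif4a2, an RNA helicase of cap-dependent initiation, from 42.3 and 44.2 FPKM to 61.4 and 58.1. Eif4g2 went from 153 and 156 FPKM to 114 and 119.6 and Eef1e1 fell by 0.51 ± 0.07. Cytosolic ribosomal protein genes differed from these, with 19 of 82 lower (5 after scaling, 6 after quantile normalization, 7 without control 1, 8 without control 2, 8 without knockdown 1, 6 without knockdown 2) and 2 of 82 higher (7 after scaling), and their direction rested on the scaling. Rps4x, on the X chromosome, went from 552 and 543 FPKM to 407 and 409, while Rpl10a went from 208 and 216 FPKM to 286 and 273. Many ribosomal protein genes have near-identical pseudogenes, so their values are uncertain.

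MYC network genes showed no common direction, with 4 of 16 higher (4 after scaling) and 3 of 16 lower (2 after scaling). Mxd3, an antagonist partner of MAX, went from 22.1 and 20.7 FPKM to 11.5 and 12.8 and fell by 0.76 ± 0.09, and Max fell by 0.38 ± 0.05.

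Splicing factors had 57 of 85 lower (41 after scaling, 24 after quantile normalization) and 6 of 85 higher (10 after scaling, 14 after quantile normalization). Hnrnpa0 went from 182 and 178 FPKM to 102 and 108 and fell by 0.77 ± 0.05 (limma, adjusted p = 7.25e-05), and Hnrnpm from 63.8 and 61.04 FPKM to 38.98 and 41.7. The largest rises in the list were in Clk1, a kinase that phosphorylates SR proteins, from 11.2 and 9.61 FPKM to 18.2 and 15.5, and Prpf38b, from 16.00 and 15.6 FPKM to 25.3 and 24.6. Chromatin modifiers had 41 of 97 lower (31 after scaling) and 9 of 97 higher (11 after scaling, 4 without control 1, 5 without control 2). Chd2, a chromatin remodeller, stood at 3.48 and 3.34 FPKM in control against 10.3 and 11.7 under knockdown and rose by 1.45 ± 0.08 (limma, adjusted p = 5.37e-05), the largest change in that list. Ezh2, the Polycomb methyltransferase, went from 27.5 and 27.7 FPKM to 17.7 and 18.1, and its partner Jarid2 from 18.5 and 17.7 FPKM to 10.7 and 10.96. Smarcc1, a core subunit of SWI/SNF remodellers, fell by 0.65 ± 0.05, and Hdac5, a class II deacetylase, rose by 0.59 ± 0.07.

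Histone genes moved in both directions. The list had 7 of 19 lower (6 after scaling) and 6 of 19 higher (9 after scaling). The variant genes H2afz and H3f3b went from 288 and 304 FPKM to 231 and 226 and from 609.5 and 611 FPKM to 397 and 385, both well separated. Hist2h2be went from 1.64 and 1.39 FPKM to 3.704 and 4.13. Copies of replication-dependent histone genes are nearly identical, so reads for these genes may be split among them. Nuclear pore and transport genes had 35 of 59 lower (17 after scaling, 15 after quantile normalization, 18 without control 1, 18 without control 2, 22 without knockdown 1) and 3 of 59 higher (5 after scaling). Pom121, a membrane nucleoporin, went from 27.97 and 28.2 FPKM to 16.4 and 18.3, and Kpna4, an importin alpha, from 76.96 and 80.3 FPKM to 49.6 and 50.9, while Nup160, of the same pore, went from 10.2 and 10.4 FPKM to 13.7 and 13.99. Drosha, the nuclease that cuts microRNA precursors from their transcripts, went from 32.2 and 31.6 FPKM to 17.1 and 17.6 and fell by 0.84 ± 0.05 (limma, adjusted p = 5.37e-05).

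Genes of protein turnover and folding were often lower. Constitutive proteasome genes had 33 of 43 lower (26 after scaling, 12 after quantile normalization) and 0 higher, with a median of -0.25. Psmc4, an ATPase of the regulatory particle, went from 65.5 and 61.2 FPKM to 41.9 and 43.5, and Psmd1, a scaffold subunit, from 67.04 and 70.9 FPKM to 46.5 and 49.3. Chaperone genes had 26 of 49 lower (15 after scaling, 9 after quantile normalization, 16 without control 1, 16 without control 2) and 2 of 49 higher (2 after scaling). Dnaja1 went from 55.1 and 56.9 FPKM to 41.1 and 39.9, and Cct8, of the cytosolic chaperonin, from 204 and 210.1 FPKM to 160.3 and 159.

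Nuclear genes of mitochondria were often lower as well. The shares lower were 62.5% in complexes II to V, 58.6% in protein import, 44.7% in the mitochondrial ribosome and 35.1% in complex I. Over all tested genes 31.3% were lower. That background is not matched for level, and it was 51.8% at 20 to 100 FPKM and 53.4% at 100 FPKM or more. Respiratory complexes II to V had 30 of 48 lower (19 after scaling, 13 after quantile normalization) and 0 higher without scaling. Cox6b1, a subunit of cytochrome oxidase, went from 309 and 299 FPKM to 197 and 195 and fell by 0.63 ± 0.06 (limma, adjusted p = 1.86e-04). Uqcrh, of complex III, went from 92.9 and 95.4 FPKM to 64.8 and 61.7, and Atp5j, of the ATP synthase, from 118 and 122 FPKM to 85.8 and 85.6. Complex I was closer to the background, with 13 of 37 lower (4 after scaling, 0 after quantile normalization, 6 without control 2, 8 without knockdown 1). Protein import genes had 17 of 29 lower (12 after scaling, 9 after quantile normalization). Timm23, the channel of the inner membrane translocase, went from 48.9 and 48.8 FPKM to 28.03 and 29.2 and fell by 0.75 ± 0.05. Mitochondrial ribosome genes had 34 of 76 lower (24 after scaling, 18 after quantile normalization) and 3 of 76 higher (10 after scaling). Mrpl20 went from 91.8 and 88.4 FPKM to 50.4 and 57.1. Of 15 genes encoded in mitochondrial DNA, 0 had a row.

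Stress response genes moved in both directions. The unfolded protein and integrated stress response list had 17 of 48 lower (9 after scaling, 7 after quantile normalization, 11 without control 2) and 10 of 48 higher (14 after scaling, 17 after quantile normalization). These shares are near those over all tested genes, 31.3% lower and 14.8% higher. Atf5, a factor of the integrated stress response, went from 74.9 and 73.7 FPKM to 35.9 and 44.7 and fell by 0.88 ± 0.09. Ddit3, which encodes CHOP, went from 21.9 and 24.8 FPKM to 36.5 and 36.6 instead, and Aldh1l2, a mitochondrial folate enzyme, from 19.6 and 24.5 FPKM to 37.7 and 39.1. Eif2ak1, a kinase that starts this response, fell by 0.59 ± 0.06, and Sec61b, of the translocon of the endoplasmic reticulum, by 0.54 ± 0.06. NRF2 targets and redox enzymes had 20 of 44 lower (14 after scaling, 13 without control 2, 12 without knockdown 2) and 5 of 44 higher (8 after scaling, 9 after quantile normalization, 3 without control 1, 3 without knockdown 1). Prdx1, a peroxiredoxin, went from 198 and 200.3 FPKM to 144 and 143, and Gclm, of glutathione synthesis, from 49.2 and 52.3 FPKM to 38.2 and 36.6. Gstm2, a glutathione transferase, went from 53.7 and 58.6 FPKM to 82.1 and 78.5.

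Glycolysis and hypoxia genes had 12 of 35 higher (14 after scaling) and 10 of 35 lower (6 after scaling, 4 after quantile normalization, 6 without control 1, 5 without control 2). Adm, adrenomedullin, went from 0.623 and 0.914 FPKM to 2.83 and 2.85 and rose by 1.12 ± 0.12, and P4ha1, a collagen prolyl hydroxylase induced by hypoxia, from 15.2 and 14.2 FPKM to 26.7 and 23.5. Ddit4, an inhibitor of mTOR induced by stress, rose by 0.62 ± 0.10. Gpi1, of central glycolysis, went from 104 and 105 FPKM to 77.3 and 80.2, while Aldoc, the brain aldolase, rose by 0.95 ± 0.10. Cholesterol genes had 6 of 32 higher (14 after scaling, 13 after quantile normalization, 12 without knockdown 2) and 6 of 32 lower (3 after scaling, 3 after quantile normalization, 3 without control 2), and here the split rested on the scaling. Lss, lanosterol synthase, went from 13.7 and 12.7 FPKM to 24.1 and 19.97. Fatty acid synthesis genes had 3 of 27 higher (4 after scaling) and 8 of 27 lower (6 after scaling, 5 after quantile normalization). These shares are near those over all tested genes, 14.8% higher and 31.3% lower. Lpin1 rose by 0.82 ± 0.14 and Acss2 by 0.63 ± 0.11, and Acaca, acetyl-CoA carboxylase, fell by 0.35 ± 0.06. Elovl6 and Me1 were also called lower.

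Lysosomal genes were higher more often than the background of 14.8%. The list had 22 of 56 higher (26 after scaling) and 9 of 56 lower (7 after scaling, 5 after quantile normalization), with a median of 0.13. Cd68, a lysosomal membrane protein, stood at 0.348 and 0.397 FPKM in control against 3.31 and 4.31 under knockdown and rose by 1.80 ± 0.11. Under overexpression Cd68 stood at 0.528 and 0.570 FPKM. It thus passed the filter through the knockdown libraries, and its direction was largely set beforehand. Arsa, arylsulfatase A, went from 5.46 and 5.405 FPKM to 10.4 and 8.75, and Ctsz, cathepsin Z, from 59.04 and 60.9 FPKM to 86.5 and 82.4. Cd68 is also a marker of macrophages. Of 14 macrophage markers 1 stood at 1 FPKM or more in control and 2 under knockdown, and Adgre1, C1qa and C1qb were at 0 in all 4 libraries. The summed level of the list was 7.70 and 7.03 FPKM in control and 9.83 and 10.5 under knockdown. Without Cd68 it was 7.35 and 6.63 FPKM in control and 6.51 and 6.20 under knockdown. The other marker tested, Lyz2, which encodes a lysozyme, went from 6.96 and 6.39 FPKM to 5.105 and 4.600 and fell by 0.39 ± 0.08.

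Matrix and protease genes moved in both directions with large changes. The list had 13 of 32 higher (15 after scaling) and 8 of 32 lower (6 after scaling, 5 after quantile normalization, 5 without control 1, 4 without control 2, 5 without knockdown 2). Timp1, an inhibitor of metalloproteinases, stood at 2.76 and 3.61 FPKM in control against 11.8 and 11.5 under knockdown and rose by 1.60 ± 0.09 (limma, adjusted p = 5.37e-05). Lama5, a laminin chain of basement membranes, went from 2.49 and 2.56 FPKM to 7.100 and 6.36 and rose by 1.13 ± 0.09. Mmp15, a membrane metalloproteinase, went from 57.8 and 53.5 FPKM to 26.02 and 22.9 and fell by 1.16 ± 0.10. Fn1, fibronectin, went from 47.8 and 47.1 FPKM to 31.1 and 29.5. Of 9 fibroblast markers 1 stood at 1 FPKM or more in control and 2 under knockdown. Among adhesion genes, with 3 of 20 lower (3 after scaling) and 1 of 20 higher (6 after scaling), Itga7, an integrin that binds laminin, rose by 0.85 ± 0.08 and Ctnnb1, beta-catenin, went from 102 and 107 FPKM to 72.7 and 73.7. In insulin and PI3K signalling, with 13 of 43 lower (6 after scaling, 6 after quantile normalization, 7 without control 1, 8 without knockdown 1) and 9 of 43 higher (10 after scaling), Akt2 and Tsc2 fell by 0.38 ± 0.06 and 0.38 ± 0.06, and Igfbp6, a binding protein of insulin-like growth factors, rose by 0.57 ± 0.07.

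**Figure D4:**
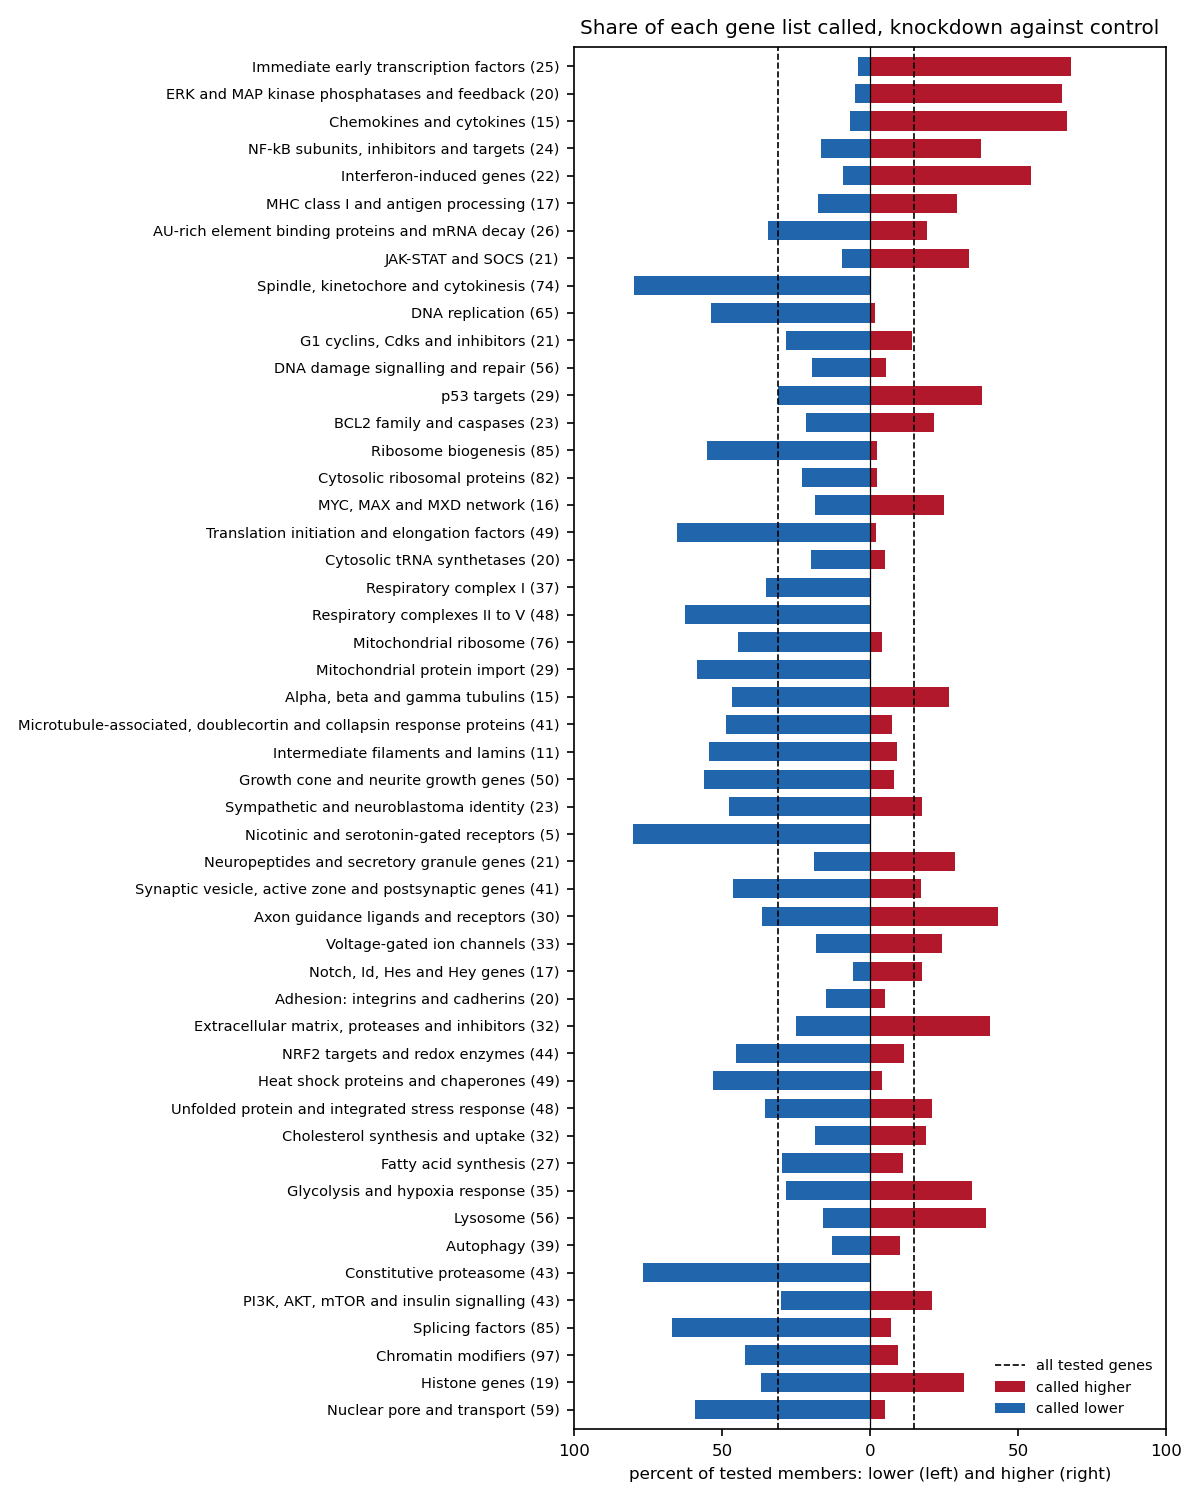
Percent of tested members of each gene list called higher (right, red) and lower (left, blue) under knockdown, without scaling, with the number tested in parentheses and the shares over all tested genes dashed. The signal-induced lists at the top lie right of the dashed line for higher genes, and mitotic, proteasome, splicing, translation and respiratory chain lists lie left of that for lower genes. The dashed shares are not matched for expression level.

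Outside these lists, the largest rises included genes of low level. B3galt4, a galactosyltransferase gene, went from 0.0349 and 0.253 FPKM to 2.97 and 5.49. Slc5a5, the sodium iodide symporter, went from 0.379 and 0.388 FPKM to 2.87 and 3.51, and Plekhg1, an exchange factor for small GTPases, from 2.39 and 2.22 FPKM to 8.601 and 8.45. Zglp1, Rnf225, Fam132a and Smco3 rose by 1.65 ± 0.12, 1.64 ± 0.14, 1.46 ± 0.09 and 1.46 ± 0.11. B3galt4, Slc5a5, Zglp1, Rnf225, Fam132a and Smco3 had group means under 1 FPKM in control and under overexpression. They passed the filter through the knockdown libraries, so the direction of these rises was largely set beforehand. Among genes of at least 20 FPKM, Lcn2, the iron-siderophore binding protein lipocalin 2, went from 14.2 and 20.5 FPKM to 32.3 and 45.6 and rose by 1.12 ± 0.22. Gtpbp2, a GTPase linked to ribosome rescue, went from 14.97 and 17.6 FPKM to 29.8 and 27.7. The abundant genes with the largest falls, beside those given above, included Ptma, prothymosin alpha, from 723 and 714 FPKM to 425 and 426, Cyp26b1, which degrades retinoic acid, from 30.9 and 28.9 FPKM to 15.2 and 12.9, C1ql1, a secreted synaptic protein, from 64.4 and 62.4 FPKM to 35.1 and 37.4, and Baiap2l1, an organiser of actin at membranes, from 117 and 113 FPKM to 65.2 and 69.8.

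The largest falls of all were in a set of low transcripts of the digestive tract. Reg1, a secreted lectin of pancreas and gut, stood at 4.599 and 3.804 FPKM in control and was listed at 0 in both knockdown libraries. Apoa1 stood at 3.75 and 3.61 FPKM in control against 0.533 and 0.399 under knockdown, Akp3, an intestinal alkaline phosphatase, at 3.07 and 3.15 FPKM in control against 0.356 and 0.280 under knockdown, and Ctrb1, chymotrypsinogen, at 2.54 and 2.501 FPKM in control against 0.298 and 0.343 under knockdown. In all, 9 genes were at 0 in both knockdown libraries and at least 1 FPKM in both controls, and 2 the reverse. In the list of 25 digestive tract markers the sum was 46.9 and 39.3 FPKM in control and 11.4 and 12.4 under knockdown. Of its members 14 stood at 1 FPKM or more in control and 3 under knockdown. Of 15 tested members 13 were lower and 1 higher, against 31.3% and 14.8% over all tested genes. Members low under knockdown passed the filter through the other libraries, so the direction of this count was largely set beforehand. Under overexpression Reg1 stood at 4.01 and 5.50 FPKM, and the member Reg3b at 0.0677 and 0.310 FPKM. The source of these transcripts was not tested. Among the other largest falls, Trim55 went from 3.33 and 2.98 FPKM to 0.251 and 0.375, and Shisa2, which restrains Wnt and FGF signalling in the endoplasmic reticulum, from 9.85 and 7.804 FPKM to 1.99 and 2.54, a fall of 1.59 ± 0.14.

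The same genes were read against the overexpression libraries, a contrast that does not use the control libraries. Of 10721 genes 4345 differed (40.5%), with 1332 higher under knockdown (12.4%) and 3013 lower (28.1%). Egr1 stood at 11.6 and 12.9 FPKM under overexpression, and knockdown was higher by 1.81 (limma, adjusted p = 2.17e-05). Cxcl1 stood at 8.34 and 5.24 FPKM, a difference of 2.29 (limma, adjusted p = 3.46e-04). Knockdown levels of these 2 genes were thus above those of both other groups. Nefh stood at 24.4 and 24.5 FPKM, close to control, and the difference of knockdown from it was -1.05 on the log2 scale. Htr3a stood between control and knockdown at 12.1 and 13.8 FPKM, as did Slit2 at 18.4 and 18.8 FPKM and Mmp15 at 34.8 and 42.8 FPKM. Timp1 also lay between, at 6.61 and 6.31 FPKM. Pim1 stood at 23.5 and 24.1 FPKM, and the difference from knockdown was -0.00 and not called (limma, adjusted p = 0.977). Lists were counted in this contrast without scaling only. In them 49 of 74 spindle genes, 33 of 43 proteasome genes and 56 of 85 ribosome biogenesis genes were lower under knockdown, with 0 higher in each. Higher under knockdown were 14 of 25 immediate early factors and 13 of 20 ERK feedback genes. FPKM summed to 294510 and 303139 under overexpression, above knockdown, and after scaling 3859 genes differed in place of 4345. The shares over all genes, 28.1% lower and 12.4% higher, are not matched for level.

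Shifts also followed chromosomes, a pattern looked for after the values had been seen. Of 373 tested genes on chromosome 13, 53.6% were lower and 5.63% higher, against 31.3% and 14.8% over all genes. The median difference from the control mean, in scaled libraries, was -0.15 in knockdown 1 and -0.13 in knockdown 2, while the controls differed from each other by -0.0027. Chromosome X gave 47.9% lower and 5.83% higher, with medians of -0.13 and -0.12. Chromosome 10 went the other way, with 16.1% lower, 23.6% higher and medians of 0.11 and 0.088. Across the 20 chromosomes the medians between the control libraries ran from -0.014 to 0.0088. On chromosome 13, 11 of 12 windows of 10 Mb with at least 10 tested genes had a median below 0 in both knockdown libraries, and on chromosome 10, 12 of 13 had a median above 0 in both. The change thus ran along most of each chromosome.

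The overexpression libraries, set against the same controls, had medians of -0.11 and -0.11 on chromosome 13, -0.066 and -0.064 on X, and 0.078 and 0.066 on chromosome 10. Set directly against overexpression, knockdown medians were -0.049 on chromosome 13, -0.058 on X and 0.022 on chromosome 10, and 0.073 and 0.074 on chromosomes 14 and 17. The source of these shifts was not tested. When each library's median was removed chromosome by chromosome, an alternative chosen after seeing the data, 2243 genes were called higher and 2268 lower. The spindle list then had 46 of 74 lower, the proteasome list 26 of 43 lower, immediate early factors 18 of 25 higher and ERK feedback genes 14 of 20 higher. This removal also takes out the shift of a library as a whole. Its counts therefore compare with those after scaling, 2245 higher and 2286 lower, with 44 of 74 spindle genes lower. In libraries already scaled, the removal left 2202 higher and 2227 lower.

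**Figure D5:**
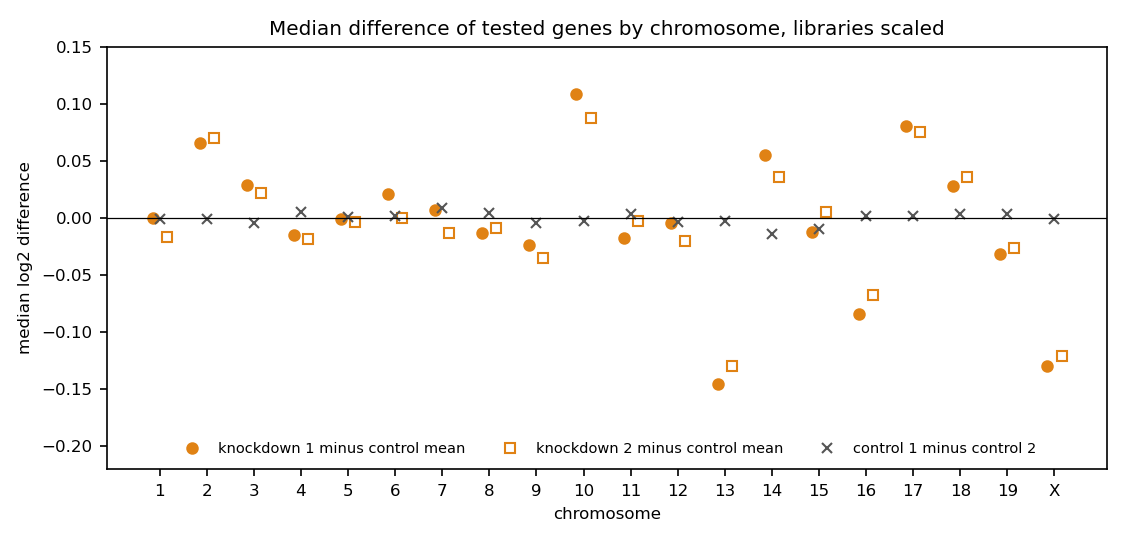
Median log2 difference of tested genes by chromosome, for each knockdown library against the control mean (orange) and between the control libraries (grey crosses), in scaled libraries. The knockdown libraries lie together, furthest below 0 on chromosomes 13, 16 and X and furthest above 0 on 2, 10 and 17, while the control libraries differ little on every chromosome.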

How the data were processed

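The authors deposited FPKM values per gene symbol for 6 libraries of Neuro-2a cells, 21878 rows in all, of which 27 carry a date in place of a symbol. Per the labels' protocols, libraries came from total RNA with a stranded mRNA kit. Trimmomatic, HISAT2, Cufflinks, HTSeq, DESeq and build mm10 were used, per the submitters' processing notes. No source used here gives their versions, the annotation or the strand setting. Absolute depth is unknown, so no counting intervals are given. Among rows under 0.1 FPKM, steps between libraries gave depths of 1.02 (knockdown 1) and 1.08 (knockdown 2) relative to control 1, with 66.5% and 52.3% of rows within 0.03 (log2) of a ratio of small whole numbers, so counts were not recovered.

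From these values log2(FPKM + 1) was computed for genes averaging 1 FPKM or more, which understates changes of low genes. For genes that reached this mean only through the knockdown libraries, the direction of change was largely set beforehand. A mean for each of 3 groups was estimated on all 6 libraries by limma 3.58.1 (R 4.3.3), with a trend in the prior variance, leaving 3 residual degrees of freedom. Benjamini-Hochberg adjustment ran over all tested genes. Positions came from GENCODE M 21 (GRCm38), with 96.4% of rows matched, and promoters from RefSeq. The script was tested on simulated data. Members, 54 gene lists and tests were chosen with earlier results of these data known, and lists carry no test. Named genes were the Pim kinases, the 15 largest rises and falls among called genes without overlap, 10 each way at 20 FPKM or more, and in each list up to 4 members by p and the 2 largest changes each way, leaving out predicted models. Some genes that meet this rule are not reported here. A count is given in parentheses without a library, or after quantile normalization, where at least 5 members were called and it moved by more than 1.5 times.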

Additional observations from a re-analysis of the deposited data

How the results depend on the processing

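Calls used 2 libraries a group and the spread they share, and depth is unknown, so small changes of low genes are the least certain. With the filter at 5 FPKM in place of 1, fewer genes were tested, and 942 were higher in place of 1590, or 1399 in place of 2245 after scaling. With 1 library left out, which leaves a single library assumed to vary like the other groups, genes higher ran from 973 (without control 1) to 1546, genes lower from 2325 to 3299, higher after scaling from 1421 to 2199, lower after scaling from 1372 (without control 1; 1491 without control 2) to 2244, and genes differing from overexpression from 2938 to 3955. The other alternatives moved these 5 counts by less than 1.5 times: pseudocounts of 0.1 and 0.5, no filter, the other scaling, quantile normalization, no expression trend, robust moderation, only the control and knockdown libraries, and the 2 added after seeing the data, in which chromosome medians (2243 higher, 2268 lower) or the GC trend (2213 higher, 2391 lower) were removed. With the replicate number as a block, 1441 genes were higher and 3063 lower, or 2028 and 2046 after scaling, and 3820 differed from overexpression. Deviations of control and knockdown libraries with the same number correlated at 0.0069. The correlation was -0.117 for control and overexpression and -0.211 for overexpression and knockdown. What the replicate number stands for is not stated. Of 300 named genes called, 249 were called under every alternative. For 3 small falls the direction turned and was not called: Ifitm2 stood at 0.024 and Gabarap at 0.017 after quantile normalization, and Ndufs4 at 0.016 with chromosome medians removed.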
